A study of Sus scrofa with 15 samples.

Results

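The 9 genes described here encode the enzymes that turn squalene into cholesterol: SQLE, LSS, CYP51A1, TM7SF2, MSMO1, NSDHL, EBP, SC5D and DHCR7. They were chosen by their place in the pathway, with earlier results of these data known. The genes were looked up by Ensembl gene identifier among the 30477 genes counted in each library, where 8 of the 9 had an entry. LSS, the lanosterol synthase, had no entry and was not analysed here. TM7SF2, a sterol C14 reductase, had 0 counts in all 15 libraries, which allows at most 0.0885 to 0.147 CPM (counts scaled to a common library size) depending on the library (3 counts, counting error only). These zeros refer to the gene model and strand option of the authors' counting, which were not checked, and do not show that TM7SF2 is silent in backfat. The other 7 genes had 312 to 4772 counts per library and entered every comparison.

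RNA of backfat, the subcutaneous fat layer of the pig, was sequenced from 15 Iberian pigs, with 1 library per pig and 5 pigs per diet. The pigs entered the diets at 6.5 months of age and were biopsied at 12 months, at the end of the growing period. The control group (C) received a compound feed, the DOP group a compound feed made with dry olive pulp, and the WCOC group a compound feed without by-product beside a silage of wet crude olive cake and barley straw. Each diet was fed to 1 pen and the amount of compound feed allowed also differed, so that diet, pen and feeding level cannot be told apart, and the sequenced pigs were selected by the amount and quality of their RNA.

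Cholesterol is built from acetyl-CoA through mevalonate and squalene. SQLE oxidises squalene, LSS closes the rings to give lanosterol, and the later enzymes remove methyl groups, move double bonds and reduce them until cholesterol is formed. When sterols in the endoplasmic reticulum are scarce, the membrane-bound factor SREBP-2 (gene SREBF2) is released and raises transcription of the pathway, while abundant sterols also hasten the breakdown of the SQLE protein. Fat tissue stores a large share of the cholesterol of the body, mostly unesterified in the lipid droplet.

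In the Sscrofa11.1 assembly, SQLE (ENSSSCG00000005970) lies on chromosome 4 from 14669789 to 14700152 on the minus strand, and DHCR7 (ENSSSCG00000021181) on chromosome 2 from 2377352 to 2391846 on the plus strand. CYP51A1 (ENSSSCG00000015311) and SC5D (ENSSSCG00000028517) are on chromosome 9, MSMO1 (ENSSSCG00000008857) on chromosome 8, and NSDHL (ENSSSCG00000012758) and EBP (ENSSSCG00000032768) on the X chromosome. SC5D overlaps a gene on the opposite strand, LOC106504896, and its counts are uncertain to that extent because the strand option of the counting is not given in the sources used here; no other member overlaps a RefSeq gene. The promoter windows below reach from 250 bases before the RefSeq transcription start to 50 bases after it, read 5′ to 3′ on the strand of the gene. They are shown for DHCR7, whose level passed the thresholds in WCOC vs. DOP, and for NSDHL, whose DOP and C libraries did not overlap. Capitals mark CCAAT, the box read by NF-Y, on either strand (ATTGG where it is on the opposite strand).

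NSDHL (chrX:123905880-123906179, plus strand): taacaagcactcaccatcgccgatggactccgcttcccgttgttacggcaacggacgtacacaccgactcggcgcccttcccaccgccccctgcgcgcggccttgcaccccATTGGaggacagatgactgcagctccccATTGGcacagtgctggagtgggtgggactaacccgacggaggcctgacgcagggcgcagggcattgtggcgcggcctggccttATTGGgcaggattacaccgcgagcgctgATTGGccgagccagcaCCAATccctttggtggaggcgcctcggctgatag

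DHCR7 (chr2:2377102-2377401, plus strand): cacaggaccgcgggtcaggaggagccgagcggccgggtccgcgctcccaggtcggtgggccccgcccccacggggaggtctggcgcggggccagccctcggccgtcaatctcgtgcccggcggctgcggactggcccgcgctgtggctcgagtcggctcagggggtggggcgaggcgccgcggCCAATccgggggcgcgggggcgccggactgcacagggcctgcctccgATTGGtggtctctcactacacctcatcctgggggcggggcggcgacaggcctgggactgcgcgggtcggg

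The windows of the 8 members other than SQLE were searched, on both strands, against 20651 RefSeq promoters of the same length. TCACCCCAC, the core of a sterol regulatory element, was found in 0 of 8 and in 0.373% of all promoters. TCACNCCAC, with 1 free base, was found in 0 of 8 and in 0.876%. At shares this low 0 of 8 is the likely outcome for any 8 promoters, so it does not show that these windows lack sterol elements. Other spellings of the element were not searched. CCAAT was found in 6 of 8 (5 matches in NSDHL, 4 in EBP, 2 in DHCR7, 1 each in LSS, TM7SF2 and SC5D, and 0 in CYP51A1 and MSMO1), against 35.7% of all promoters. GGGCGG, the GC box of Sp1-type factors, was found in 7 of 8 (not in SC5D) against 49.0%. CACGTG, an E-box that reads the same on both strands, was found in SC5D alone of the 8, against 7.64%. These matches describe the letters of the windows, and no factor binding was measured.

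The libraries held 22373715 to 34745218 counts on genes, and 14918 genes passed the filter on low counts. Levels are given as CPM scaled by TMM, which corrects for the makeup of a library. Flow cell A carried C replicates 1 to 4 and all WCOC libraries, and flow cell B carried C replicate 5 and all DOP libraries, so that DOP and WCOC shared no flow cell. Adipocyte markers were abundant in every library (9 of 10 listed genes measured, summed level 16608 to 25546 CPM). As the tissue is a bulk sample, fewer cells of a type and less RNA per cell cannot be told apart. Skeletal muscle markers (4 of 10 listed genes tested) ranged from 42.2 to 3555 CPM in C, from 32.1 to 43776 CPM in DOP and from 16.5 to 684 CPM in WCOC. Macrophage markers (10 of 10) ranged from 257 to 765 CPM in C, from 180.4 to 455 CPM in DOP and from 124 to 341 CPM in WCOC, and dividing cell markers (7 of 8) from 56.5 to 109.8 CPM, from 59.8 to 83.0 CPM and from 24.1 to 41.6 CPM.

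A gene was called when its log2 fold change (log2FC) reached 0.58 in either direction with an adjusted p below 0.05 in edgeR's quasi-likelihood test, adjusted by the Benjamini-Hochberg method over all tested genes. Adjusted p-values below come from that test unless DESeq2 is named. The range given for SQLE over the alternatives other than leaving out a library also includes DESeq2 and limma-voom. The C libraries serve in both comparisons with C.

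SQLE, the squalene epoxidase, carries out the first oxygen-requiring step and was the member that moved most in the DOP group. Its level in the C libraries was 55.2, 57.9, 53.9, 46.1 and 49.7 CPM (replicates 1 to 5). In the DOP libraries it was 27.8, 20.2, 29.9, 29.6 and 22.9 CPM. In the WCOC libraries it was 29.1, 48.2, 47.0, 49.996 and 53.4 CPM. All 5 DOP libraries lay below all 5 C libraries, whereas 4 of the 5 WCOC libraries lay inside the range of C and WCOC replicate 1 lay inside the range of DOP. The mean was 52.6 ± 4.65 CPM in C, 26.1 ± 4.31 CPM in DOP and 45.5 ± 9.51 CPM in WCOC (SD, n = 5). SQLE fell in DOP vs. C by 50.4%, a log2FC of −1.01 (SE 0.15, adjusted p = 0.0268), and was not called in WCOC vs. C (log2FC −0.21, SE 0.15, adjusted p = 0.397). The difference between the olive diets was tested directly and SQLE was higher in WCOC than in DOP, with a log2FC of 0.80 (SE 0.15, adjusted p = 0.00542). Without WCOC replicate 1 the log2FC of WCOC vs. C was −0.08 and that of WCOC vs. DOP was 0.93.

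The call of SQLE in DOP vs. C depended on single libraries. It was kept in 5 of the 10 fits that left out 1 C or DOP library, with adjusted p-values from 0.0105 to 0.0798 over those 10 fits, and lost without C replicate 3 or 5 or DOP replicate 2, 4 or 5. The direction did not change in these fits, where the log2FC ran from −1.07 to −0.94. The C library of flow cell B, replicate 5, had 49.7 CPM against 20.2 to 29.9 CPM in the 5 DOP libraries of the same flow cell, a log2FC of −0.95. With 1 C library there, the spread among C libraries could not be measured, and the adjusted p of 0.212 within flow cell B assumes that this library varies like the DOP libraries.

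**Figure D1:**
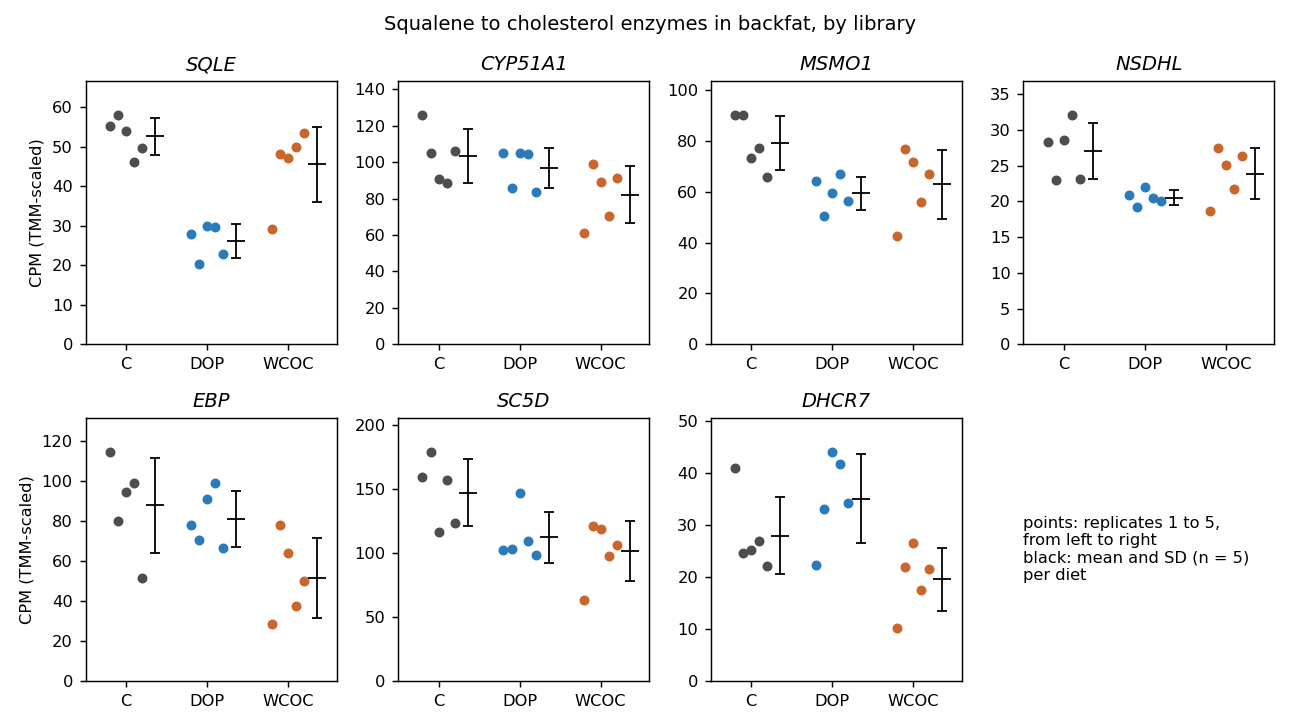
Level of each of the 7 measured enzymes in CPM (linear axis from 0) in the 15 libraries, by diet. Points are single libraries, replicates 1 to 5 from left to right, and the black marks give the mean and SD of 5 libraries; the 5 DOP libraries of SQLE (20.2 to 29.9 CPM) lie below the 5 C libraries (46.1 to 57.9 CPM), and WCOC replicate 1 is the lowest WCOC library in all 7 panels.

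CYP51A1, the lanosterol 14-alpha-demethylase, follows once the rings are closed and differed least between the diets in DOP vs. C. It had 126, 105, 90.7, 88.8 and 106 CPM in C. It had 105, 85.6, 105, 105 and 83.4 CPM in DOP. It had 60.9, 98.8, 89.2, 70.5 and 91.5 CPM in WCOC. The diets overlapped, with WCOC replicates 1 and 4 below every other library. CYP51A1 passed no threshold, with a log2FC of −0.10 (SE 0.13, adjusted p = 0.768) in DOP vs. C and −0.33 (SE 0.13, adjusted p = 0.137) in WCOC vs. C. In WCOC vs. DOP its log2FC was −0.23 (adjusted p = 0.279).

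MSMO1, the sterol-C4-methyl oxidase, and NSDHL, the sterol dehydrogenase that acts beside it in removing the methyl groups at C4, had lower means in both olive diets without being called. MSMO1 had 90.0, 90.1, 73.5, 77.4 and 65.7 CPM in C. It had 64.1, 50.4, 59.5, 67.0 and 56.3 CPM in DOP. It had 42.8, 77.0, 71.8, 56.1 and 67.1 CPM in WCOC. The DOP libraries of MSMO1 met the C range only at its lower end, where C replicate 5 (65.7 CPM) lay below DOP replicate 4 (67.0 CPM). Its log2FC was −0.42 (SE 0.14, adjusted p = 0.158) in DOP vs. C, −0.33 (SE 0.14, adjusted p = 0.152) in WCOC vs. C and 0.08 (SE 0.14, adjusted p = 0.755) in WCOC vs. DOP.

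NSDHL had 28.3, 22.98, 28.6, 32.1 and 23.1 CPM in C. It had 20.97, 19.2, 22.04, 20.4 and 20.1 CPM in DOP. It had 18.7, 27.6, 25.1, 21.8 and 26.4 CPM in WCOC. All 5 DOP libraries lay below all 5 C libraries, although the highest DOP library (22.04 CPM) and the lowest C library (22.98 CPM) were close. The DOP libraries of NSDHL were also the most alike of any member and diet, with a coefficient of variation of 5.16% against 14.5% in C and 15.1% in WCOC. The log2FC of NSDHL was −0.40 (SE 0.12, adjusted p = 0.112) in DOP vs. C, short of both thresholds, and −0.18 (SE 0.11, adjusted p = 0.346) in WCOC vs. C.

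EBP, the sterol isomerase that moves the double bond from C8 to C7, varied more between libraries. It had 115, 80.1, 94.5, 99.4 and 51.7 CPM in C. It had 78.1, 70.4, 91.1, 99.4 and 66.8 CPM in DOP. It had 28.5, 78.2, 63.9, 37.4 and 50.2 CPM in WCOC. The lowest C library, replicate 5, lay inside the WCOC range, and the coefficient of variation was 27.02% in C and 38.7% in WCOC. EBP had the WCOC vs. C difference farthest from 0 among the members, a log2FC of −0.77 (SE 0.25), but its adjusted p was 0.0659 and it was not called. It was called without C replicate 5 (adjusted p = 0.0367) and without WCOC replicate 2 (adjusted p = 0.0210) and in 0 of the other 8 fits that left out 1 library, with adjusted p-values from 0.0210 to 0.145 over the 10 fits. The log2FC of EBP was −0.12 (SE 0.25, adjusted p = 0.853) in DOP vs. C. Against C replicate 5 alone, the only C library of flow cell B, it turned to 0.63.

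SC5D, the lathosterol oxidase that introduces the C5 double bond, had lower means in both olive diets without being called. It had 160.0, 179, 117, 157 and 124 CPM in C. It had 103, 103, 147, 109 and 98.8 CPM in DOP. It had 63.4, 121, 119, 98.1 and 107 CPM in WCOC. In DOP replicate 3 stood above the other DOP libraries and inside the C range, and 3 of the 5 WCOC libraries lay below the lowest C library. SC5D had a log2FC of −0.39 (SE 0.17, adjusted p = 0.256) in DOP vs. C and −0.54 (SE 0.17, adjusted p = 0.0635) in WCOC vs. C, and neither was called. Leaving out WCOC replicate 2 gave a call in WCOC vs. C (adjusted p = 0.0430), and 0 of the other 9 such fits did, with adjusted p-values from 0.0430 to 0.125 over the 10 fits.

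DHCR7, the 7-dehydrocholesterol reductase, reduces 7-dehydrocholesterol to cholesterol, and its substrate is also the precursor of vitamin D. It had 40.8, 24.6, 25.2, 26.8 and 22.1 CPM in C. It had 22.2, 33.1, 44.0, 41.6 and 34.2 CPM in DOP. It had 10.2, 21.9, 26.4, 17.5 and 21.5 CPM in WCOC. DHCR7 was the only 1 of the 7 measured members with a higher mean in DOP (35.0 ± 8.55 CPM) than in C (27.9 ± 7.40 CPM), and its mean was 19.5 ± 6.07 CPM in WCOC (SD, n = 5). The log2FC was 0.33 (SE 0.24, adjusted p = 0.512) in DOP vs. C and −0.52 (SE 0.24, adjusted p = 0.186) in WCOC vs. C, so that neither comparison with C passed. Between the olive diets DHCR7 was called lower in WCOC than in DOP, with a log2FC of −0.85 (SE 0.24, adjusted p = 0.0352). The WCOC and DOP libraries overlapped through DOP replicate 1 (22.2 CPM) and WCOC replicate 3 (26.4 CPM). This call was kept in 3 of the 10 fits that left out 1 library (without DOP replicate 1 and without WCOC replicate 2 or 3), with adjusted p-values from 0.0175 to 0.0782 and a log2FC from −0.98 to −0.68.

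In DOP vs. C, 6 of the 7 measured members had a negative log2FC, with a median of −0.39 beside 0.01 over all tested genes, of which 47.8% had a negative log2FC. Diet and flow cell were nearly the same split here, and the member median was −0.14 with flow cell as a covariate and −0.15 within flow cell B, both of which rest on C replicate 5 as the only C library of that flow cell. SQLE was the 1 member called, and 0.764% of all tested genes were called. NSDHL and SQLE were the 2 members whose libraries did not overlap between the diets, against 3.47% of all tested genes. An unadjusted p under 0.05 was reached by 4 of the 7 (SQLE, NSDHL, MSMO1 and SC5D), against 17.6% of all tested genes. Skeletal muscle and macrophage markers differed between these diets as well: the 4 muscle markers had a median log2FC of 3.32 and 0 were called by edgeR (1 at an unadjusted p under 0.05), and of the 10 macrophage markers 9 were lower with 1 called (MSR1, a scavenger receptor, log2FC −3.18). With the mean level of the macrophage markers as a covariate the log2FC of SQLE was −0.95 (adjusted p = 0.0652), and with that of the muscle markers −0.97 (adjusted p = 0.0466); beyond that, their part in the result was not tested.

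In WCOC vs. C, all 7 measured members had a negative log2FC, from −0.77 (EBP) to −0.18 (NSDHL), with a median of −0.33 beside 0.00 over all tested genes, of which 49.4% were negative. No member was called by edgeR, against 6.25% of all tested genes, while 1 was called by DESeq2 (EBP, adjusted p = 0.0190) and 0 by limma-voom. An unadjusted p under 0.05 was reached by 5 of the 7 (SC5D, EBP, CYP51A1, MSMO1 and DHCR7), against 26.4%, and 0 of the 7 had libraries that did not overlap, against 7.62%. WCOC replicate 1 was the lowest WCOC library for all 7 members and the lowest of the 15 libraries for 6 of them, the exception being SQLE, which was lowest in DOP replicate 2. Without WCOC replicate 1 all 7 stayed negative, with a median log2FC of −0.24 and EBP at −0.62. In this comparison all 10 macrophage markers were lower and 5 were called (MSR1, CD68, MRC1, CD163 and AIF1). Called lower were also 4 of 7 fibroblast markers (LUM, COL1A1, COL1A2 and DPT) and 7 of 7 dividing cell markers (among them TOP2A, CCNB1, BUB1 and CDK1). Only 1 endothelial marker (CLDN5) and 1 adipocyte marker (ADIPOQ) were called higher. The adipocyte list held either sign, with 6 of 9 markers positive and 3 negative (among them LPL, −0.40, adjusted p = 0.132). With the macrophage markers as a covariate the member medians were −0.28 in WCOC vs. C and −0.35 in DOP vs. C, and with the muscle markers −0.39 and −0.30. The part of the fibroblast, dividing cell, endothelial and adipocyte markers was not tested.

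In WCOC vs. DOP, 4 of the 7 members had a negative log2FC and the median was −0.14 beside 0.00 over all tested genes. This median was −0.013 without WCOC replicate 1, −0.026 without DOP replicate 3 and −0.22 without WCOC replicate 2, and −0.25 with flow cell and −0.30 with the muscle markers as a covariate. SQLE was called higher and DHCR7 lower in WCOC, which makes 2 of 7, against 7.76% of all tested genes. EBP had a log2FC of −0.65 (SE 0.25, adjusted p = 0.103) and NSDHL of 0.22 (SE 0.11, adjusted p = 0.234). An unadjusted p under 0.05 was reached by 3 of the 7 (SQLE, DHCR7 and EBP), against 28.1%, and 0 of the 7 had libraries that did not overlap, against 8.9%. SQLE was called in all 10 fits that left out 1 library (adjusted p from 0.00226 to 0.0160). With flow cell as a covariate, which rests on C replicate 5 as the only C library of flow cell B, 0 members and 1 gene in all were called in WCOC vs. DOP, and no flow cell held both of these diets. Called markers of other cells in this comparison were TNNT3, a muscle troponin (log2FC −5.48), KRT1, a keratin of the epidermis (5.24), CD163 (−1.30), LUM (−1.06) and PDGFRA (−0.58), the dividing cell markers TOP2A, BUB1, CCNB1, CDK1 and MCM2 (−2.33 to −1.10), and the adipocyte markers LEP (1.08) and PLIN4 (0.70). The adipocyte and macrophage lists each held values of either sign, as 6 of 9 adipocyte markers had a positive and 3 a negative log2FC (among them LPL, −0.56, adjusted p = 0.0384), and 7 of 10 macrophage markers had a negative and 3 a positive one (among them MSR1, 0.50, adjusted p = 0.649). The level of the muscle markers as a covariate left SQLE called (log2FC 0.72, adjusted p = 0.0335) and DHCR7 not called (log2FC −0.78, adjusted p = 0.153).

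**Figure D2:**
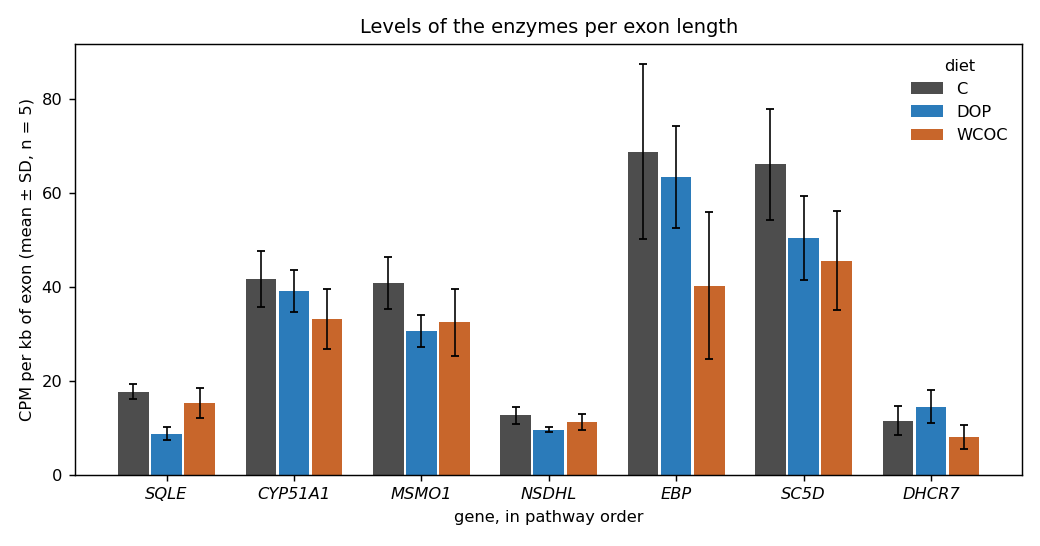
Mean level per exon length of the 7 measured enzymes in pathway order, in CPM per kb of exon (linear axis from 0), with the SD of 5 libraries as bars, by diet. EBP and SC5D stand highest in all 3 diets (68.7 and 66.0 CPM per kb in C), and SQLE is the lowest in DOP (8.77 CPM per kb).

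Levels were compared between genes per kb of exon. In C the order was EBP (68.7 ± 18.6), SC5D (66.0 ± 11.8), CYP51A1 (41.7 ± 5.99), MSMO1 (40.8 ± 5.48), SQLE (17.7 ± 1.56), NSDHL (12.6 ± 1.82) and DHCR7 (11.5 ± 3.06 CPM per kb, SD, n = 5). EBP and SC5D, CYP51A1 and MSMO1, and NSDHL and DHCR7 were neighbours that did not differ beyond their spread, and the 5 C libraries of SQLE lay above the 5 of NSDHL. In DOP, SQLE took the last place with 8.77 ± 1.45 CPM per kb, overlapping NSDHL (9.59 ± 0.49), and DHCR7 took the fifth place with 14.5 ± 3.54 CPM per kb. In WCOC the order was that of C except that SC5D (45.6 ± 10.5 CPM per kb) came before EBP (40.3 ± 15.6), which overlapped. The length is that of all exons of the RefSeq gene, and the transcript actually used in fat was not tested.

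**Figure D3:**
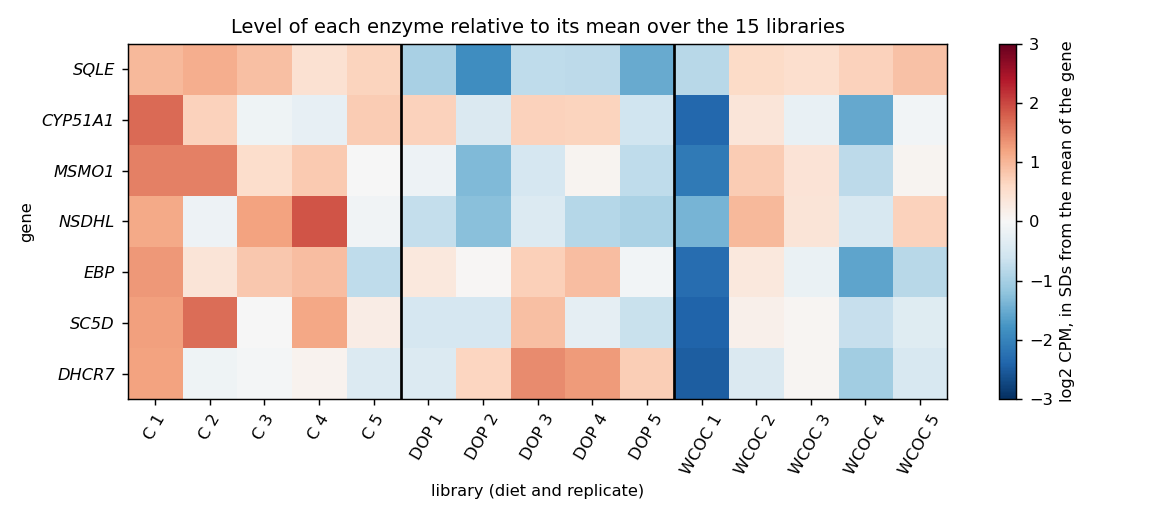
Level of each enzyme in each of the 15 libraries, as log2 CPM in standard deviations from the mean of that gene over all libraries (blue below, red above). WCOC replicate 1 is the lowest of the 15 libraries for 6 of the 7 enzymes, and the SQLE row is blue in all 5 DOP libraries.

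The members also varied together among pigs on the same diet. After the diet mean was subtracted from log2 CPM, all 21 pairs of the 7 members correlated positively over the 15 libraries, with Pearson's r from 0.47 (SQLE and NSDHL) to 0.85 (MSMO1 and EBP) and a median of 0.69 (Spearman's rho 0.29 to 0.81, median 0.58). WCOC replicate 1 carried part of this, since without it r ran from 0.03 to 0.78 with a median of 0.49 over 14 libraries. The pairs of SQLE fell most, to a median of 0.30, while MSMO1 and EBP (0.78) and NSDHL and EBP (0.75) stayed the closest pairs. The libraries share depth and cell makeup, and these values are descriptions without a test. No value over all pairs of tested genes was set beside them. With the mean of the members, the 10 fatty acid synthesis genes also correlated, at r from 0.60 to 0.77. The 9 other genes between squalene and cholesterol ran from −0.57 (LBR) to 0.80. The 5 tested genes outside the sterol lists whose pattern was most like the mean of the members were NT5C3B (r = 0.92), CWF19L1 (0.91), ATP13A1 (0.91), PIDD1 (0.89) and EMC4 (0.88), over the 15 libraries. Without WCOC replicate 1 their r was 0.82, 0.78, 0.91, 0.82 and 0.91, in the same order of genes.

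Upstream of SQLE lie the mevalonate enzymes, of which 1 of 8 tested genes was called lower in DOP vs. C, 3 of 8 in WCOC vs. C and 1 of 8 in WCOC vs. DOP. Of the 10 listed genes, PMVK was not found and FDPS was not tested, with 2 to 8 counts per library under the same limit as TM7SF2. The log2FC of all 8 was negative in DOP vs. C (median −0.34) and in WCOC vs. C (median −0.68), although most did not pass the thresholds. ACAT2, the acetoacetyl-CoA thiolase of the first step, was called lower in WCOC vs. C (log2FC −0.79, adjusted p = 0.00793) and in WCOC vs. DOP (−0.60, adjusted p = 0.0267), and HMGCS1, the synthase of the next step, in WCOC vs. C (−0.71, adjusted p = 0.0192) but not in DOP vs. C (−0.63, adjusted p = 0.0898).

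**Figure D4:**
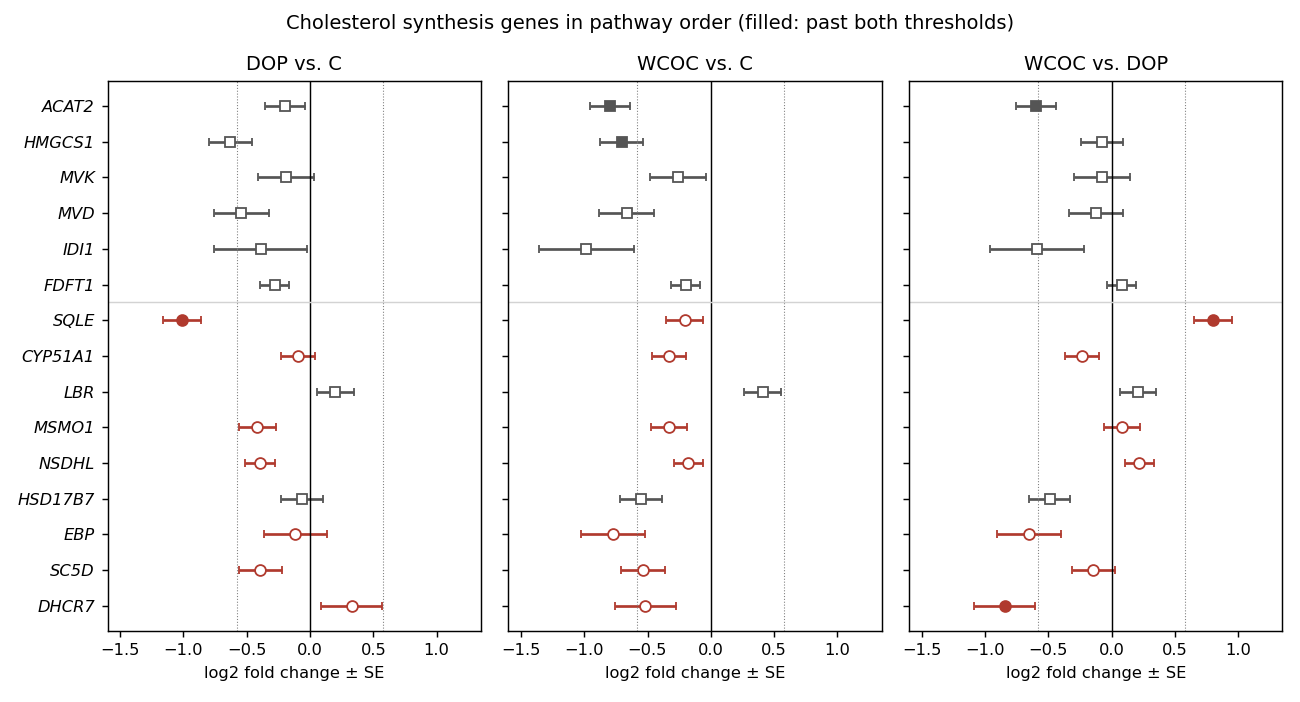
Log2 fold change with its SE for 15 cholesterol synthesis genes in pathway order from top to bottom, in the 3 comparisons. Circles are the 7 measured members and squares the other genes, filled symbols were called, and dotted lines mark a log2FC of 0.58 in either direction; SQLE is the filled circle at −1.01 in DOP vs. C and at 0.80 in WCOC vs. DOP.

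Of the 9 other genes that act between squalene and cholesterol, all were tested and 0 were called by edgeR in each of the 3 comparisons, with 1, 2 and 4 at an unadjusted p under 0.05. HSD17B7, the ketoreductase that works with MSMO1 and NSDHL, had a log2FC of −0.55 (SE 0.16, adjusted p = 0.0459) in WCOC vs. C, short of 0.58. Short of that size in WCOC vs. DOP were PGRMC1 (−0.42, adjusted p = 0.0230) and CYB5R3 (0.41, adjusted p = 0.0426), also of this list. LBR, the lamin B receptor and the second sterol C14 reductase beside TM7SF2, had 19.01 to 34.3 CPM in C, 26.9 to 32.9 CPM in DOP and 25.7 to 38.7 CPM in WCOC. Its log2FC was positive, 0.20 (adjusted p = 0.510) in DOP vs. C and 0.41 (adjusted p = 0.0883) in WCOC vs. C.

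Among the genes that sense sterols, SREBF2, the gene of SREBP-2, was not called (log2FC −0.31 in DOP vs. C, adjusted p = 0.251, and −0.19 in WCOC vs. C, adjusted p = 0.373). INSIG1, which holds the SREBP complex in the endoplasmic reticulum and is itself an SREBP target, had a log2FC of −0.29 (adjusted p = 0.209) in DOP vs. C and was called lower in WCOC vs. C (−0.77, adjusted p = 0.00133). In the list of sterol uptake, efflux and esterification 14 of 15 genes were tested, of which edgeR called 0 in DOP vs. C (7 at an unadjusted p under 0.05). Among those called in WCOC vs. C were STARD4, a sterol carrier (−1.23), NCEH1, a cholesteryl ester hydrolase (−0.97), and SOAT1, which esterifies cholesterol (−0.65), all lower, and MYLIP, a ubiquitin ligase under LXR control (0.60), higher. No gene of this list was called by edgeR in WCOC vs. DOP, where 2 had an unadjusted p under 0.05.

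Fatty acid synthesis, the other lipid pathway under SREBP control, was set beside the members. Of 10 tested genes edgeR called 0 in DOP vs. C, 5 in WCOC vs. C and 6 in WCOC vs. DOP, all lower in WCOC. In WCOC vs. C these included ME1, the malic enzyme (log2FC −1.55), FASN, the fatty acid synthase (−1.38), ACLY, the citrate lyase (−1.19), and SLC25A1, the citrate carrier (−0.93). In WCOC vs. DOP they included FASN (−1.31), SLC25A1 (−1.25), ME1 (−1.23) and ACLY (−1.09). In DOP vs. C, where SQLE was called lower, the 10 genes had a median log2FC of −0.05 and 1 had an unadjusted p under 0.05.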

How the data were processed

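RNA-seq libraries of backfat from 15 Iberian pigs were analysed, 5 per diet. The authors aligned read pairs to Sscrofa11.1 with HISAT2 and counted them per gene with HTSeq, and the deposited values are raw counts; the annotation release and the strand option of the counting are not given in the sources used here. Lines for uncounted pairs (23.4% to 32.8% of a library) were left out. Groups and replicate numbers came from the labels and flow cells from the run identifiers. With edgeR 4.0.16 in R 4.3.3, genes were filtered with filterByExpr (14918 kept), scaled by TMM and fitted with 1 mean per diet over all 15 libraries. Both thresholds are those of the study. The fit was tested on simulated data. CPM (with TMM-scaled library sizes) and log2 values were computed here from the deposited counts. Promoters were read from the RefSeq Sscrofa11.1 sequence with pysam 0.24.0. No 2 libraries of a diet were duplicates. All members are named, and of other lists called genes (up to 4 per list and comparison), SREBF2, INSIG1, LBR, HSD17B7 and the 5 genes most alike in pattern. AIF1, MCM2, MYLIP, LPL, ACSS2, ELOVL6, PGRMC1 and CYB5R3 were added after their values were seen. A few genes and 1 promoter are not reported here. The members and lists were chosen with earlier results of these data known. Alternatives used DESeq2 1.42.0, limma 3.58.1 (voom), other scaling and filters, 2 diets alone, a replicate block, flow cell, marker covariates and each library left out. Each library is 1 pig, so p-values set a difference against the spread between pigs. With 1 pen per diet they hold no spread between pens.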

Additional observations from a re-analysis of the deposited data

Results flagged for a closer look

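Within a diet, the values of the 7 measured members gave 21 groups of 5 libraries, and in 3 of them 1 library stood apart from the other 4 by more than Dixon's critical value of 0.71 for the gap over the range. Chance alone gives about 1 such group in 20. The libraries were WCOC replicate 1 for SQLE (29.1 CPM), DOP replicate 3 for SC5D (147 CPM) and C replicate 1 for DHCR7 (40.8 CPM). The effect of the 2 olive diets against C, with shared controls, differed by the test of WCOC vs. DOP for SQLE (log2FC 0.80) and DHCR7 (−0.85). Among the genes of the sterol and fatty acid lists those called in WCOC vs. DOP were ACAT2 (−0.60), FASN (−1.31), SLC25A1 (−1.25), ME1 (−1.23), ACLY (−1.09), ACSS2 (−0.76) and ELOVL6 (−0.75). DOP and WCOC shared no flow cell, so diet and flow cell cannot be told apart in these differences. With flow cell as a covariate 0 members and 1 gene in all were called. The call of DHCR7 was kept in 3 of the 10 fits that left out 1 library. Leaving out C replicate 1 changed the log2FC of DHCR7 in DOP vs. C from 0.33 to 0.50 and left it uncalled.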

How the results depend on the processing

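The number of members called was 1 in DOP vs. C, 0 in WCOC vs. C and 2 in WCOC vs. DOP. In DOP vs. C it was 0 with the replicate block, with flow cell as a covariate, within flow cell B and with the macrophage markers as a covariate (the 1 C library of flow cell B is assumed to vary like the DOP libraries), and SQLE was called in 8 of the 12 alternatives other than leaving out a library (adjusted p from 2.37e-07 to 0.212) with a log2FC from −1.02 to −0.93. In WCOC vs. C it was 1 with DESeq2 and with flow cell as a covariate (EBP both times, adjusted p = 0.0190 and 0.0367) and 1 with the muscle markers as a covariate (SC5D, adjusted p = 0.0386), an alternative chosen after seeing the data. In WCOC vs. DOP it was 1 when only the 2 diets compared were fitted, with the replicate block and with the muscle covariate, and 0 with flow cell as a covariate. Leaving out single libraries gave 0 to 1, 0 to 2 and 1 to 3 members. Signs turned only for values that were not called: EBP in DOP vs. C (0.65 with flow cell as a covariate, 0.63 within flow cell B), CYP51A1 in DOP vs. C (0.0080 with the macrophage covariate), NSDHL in WCOC vs. DOP (−0.058 with flow cell as a covariate) and MSMO1 in WCOC vs. DOP (−0.25 with flow cell as a covariate, −0.013 with the muscle covariate, and −0.0032 to 0.19 over the fits that left out single libraries, turning without WCOC replicate 2). The replicate numbers did not pair the pigs (same-numbered libraries correlated at −0.50 to 0.34, and 1 of 15 correlated best with its own number), so a call lost under the block is not read as a weaker effect. Over all tested genes the calls in DOP vs. C moved from 114 to 496 with DESeq2, 19 with limma-voom, 2 in a fit of the 2 diets alone, 0 with the block, 38 within flow cell B, 4 with the macrophage and 42 with the muscle covariate. In WCOC vs. C they moved from 933 to 473 with the block, 486 within flow cell A and 52 with the macrophage covariate, and in WCOC vs. DOP from 1158 to 561 with the block, 1 with flow cell as a covariate and 449 with the muscle covariate. Leaving out single libraries gave 0 to 200, 468 to 1163 and 639 to 1291 calls. The causes of these moves were not tested.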
